A study of Saccharomyces cerevisiae with 26 samples.

Results

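The strongly replicated chromosome arm zones of WT budding yeast (Saccharomyces cerevisiae) are 447 windows of 1 kb, out of 12070 windows in the genome. They lie more than 35 kb from a chromosome end and more than 35 kb from a centromere, on the chromosomes other than III and VI, and had a mean BrdU signal of at least 40 in WT replicate 1. They make up 4.71% of the 9486 windows that met the position rule. Windows separated by at most 1 other window were joined, which gave 89 zones on 13 chromosomes, and chromosome I had none. Values are the authors' normalized signal per bin of 50 bp. The members were chosen by WT replicate 1, whose values are therefore given as a description, and the mutants were compared with WT replicate 2.

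The study asked where cells lacking FKH1, FKH2 or both make DNA once they leave G1. The BrdU libraries used here came from strains labelled fkh1Δ, fkh2Δ, fkh1Δfkh2Δ and fkh1Δfkh2Δ2C and from WT as the control, with 2 libraries per strain. Per the labels, all strains were treated alike. Cells were held at room temperature in rich medium with α-factor, a mating pheromone that arrests cells in G1, over 4 hours, and were then given hydroxyurea and BrdU for 1 hour. Rpb3 libraries (a subunit of RNA polymerase II, by chromatin immunoprecipitation) and stranded RNA libraries came from fkh1Δfkh2Δ2C and WT, either in asynchronous growth or under α-factor arrest in G1. What 2C stands for is not stated in the labels. No label states that the replicates were separate cultures, so p-values measure only the spread between these libraries, which may be technical.

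Replication in budding yeast starts at origins, short stretches of DNA where the replicative helicase is loaded in G1 and set off in S phase. Hydroxyurea lowers the supply of nucleotides, so that forks from the earliest origins stall and later origins stay unfired. BrdU, a thymidine analogue, then marks the DNA around the origins that fired early. Fkh1 and Fkh2 are Forkhead transcription factors that act on genes of the G2 and M phases and that are also known to advance the firing of a set of origins. Origins near centromeres fire early and those near chromosome ends fire late in WT yeast.

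Some libraries need naming before the results. The BrdU library titled fkh2Δ replicate 2 has a strain tag of fkh1Δ. BAR1 (the α-factor protease) had a BrdU signal of 2.53 there, near the median bin of 2.60 to 2.66, against at most 0.0531 in the other libraries. In the 8 Rpb3 libraries BAR1 had 0. The 2 fkh2Δ libraries may thus differ in BAR1, and whether they come from 1 strain was not tested. The library labelled fkh1Δfkh2Δ replicate 1 was, over the members, close to 0.474 times fkh1Δfkh2Δ replicate 2 plus 0.526 times the library labelled fkh1Δfkh2Δ2C replicate 1. The median residual was 1.84%, and its value lay between those of the other 2 libraries in 431 of the 447 windows. The same kind of fit for 4 other libraries left 3.12% to 19.8%. Main BrdU comparisons are therefore given with and without the libraries labelled fkh1Δfkh2Δ replicate 1 and fkh1Δfkh2Δ2C replicate 1, called the doubted libraries from here on. Without both, WT, fkh1Δfkh2Δ and fkh1Δfkh2Δ2C have 1 library each. The spread then comes from fkh1Δ and fkh2Δ alone, whose replicates were the closest over the members (median absolute log2 difference 0.0716 and 0.0618). With the results, only median changes are therefore given for that fit, and no counts of windows past the threshold. Its shares past the threshold are listed among the processing alternatives alone, and no result rests on them.

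The mutated genes checked the labels in part. In Rpb3 FKH1 carried 1.32 to 7.26 in fkh1Δfkh2Δ2C and 27.7 to 41.0 in WT, whereas FKH2 as a whole gene carried 36.0 to 45.3 in fkh1Δfkh2Δ2C and 27.5 to 38.5 in WT. Within FKH2 a stretch of 700 bp (chromosome XIV, 495701 to 496400), picked for its low signal, carried 1.16 to 4.44 in fkh1Δfkh2Δ2C and 27.5 to 39.3 in WT. In BrdU FKH1 carried 5.10 and 5.50 in fkh1Δ, 2.62 to 2.81 in the 4 libraries labelled with both mutations, and 19.9 and 22.2 in WT. The zone beside FKH1, between ASG1 and TAO3, was low in these strains too. Its apex had 32.6 and 29.3 in fkh1Δ and 8.53 and 5.58 in fkh1Δfkh2Δ, against 83.3 in WT replicate 2. BrdU over FKH1 thus cannot tell a lost gene from less replication around it. FKH2 carried 3.77 and 3.08 in fkh2Δ, 19.1 and 9.80 in fkh1Δfkh2Δ, 31.8 and 23.8 in fkh1Δfkh2Δ2C, and 6.07 and 10.6 in WT. BrdU over FKH2 was thus low in fkh2Δ but not in the libraries labelled with both mutations. BrdU varied slowly, with neighbouring bins 0.641% to 1.04% apart in the median, against 17.4% to 20.9% for Rpb3. In the 700 bp stretch BrdU was 24.4 and 12.6 in fkh1Δfkh2Δ2C, 15.2 and 8.36 in fkh1Δfkh2Δ, and 3.76 and 6.6 in WT. It was 8.1 and 7.7 there in fkh1Δ and 2.46 and 2.26 in fkh2Δ. Whether a deletion of this length shows in BrdU signal was not tested. The FKH2 mutation of the strain labelled fkh1Δfkh2Δ, which has no Rpb3 library, was therefore not seen in these values, and every result on both mutations rests on that label. The strains labelled fkh1Δ and fkh2Δ have no Rpb3 library either, and their results rest on the labels too.

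In WT the zones were 1 to 13 kb wide, with a median of 5 kb, and 2 of them were single windows. The apex of a zone, its highest window in WT replicate 1, had a median of 88.9 in WT replicate 2, with a range of 37.4 to 202.0. Of the 89 apexes, 88 were at or above 40 in WT replicate 2 too. Neighbouring apexes on a chromosome were 12.5 to 233.1 kb apart, with a median of 53.95 kb. Zones are named here by the genes at or beside their apex, and a zone can reach beyond these genes. The widest zone covered 13 kb on chromosome IV, with its apex between HXT3, a hexose transporter gene, and SVF1. The next widest covered 8 kb each, and 4 of these had apexes between CRF1 and HTB1, inside PEX35, between XKS1 and SKI6, and between JJJ3 and YJR098C. Other zones, such as that of MET5 and IML1, were 8 kb wide too.

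The zone with the highest WT replicate 1 apex lay in the ribosomal DNA, on chromosome XII between TAR1 and YLR154C-G (apex window from 460001 to 461000, coordinates as in the files, whose build the labels do not name). Its apex was 221.0 in WT replicate 1 and 144.2 in WT replicate 2, and the replicates were farther apart in fkh1Δfkh2Δ2C, at 170.5 and 56.4. Reads of repeated genes can be split or stacked by mapping, so this zone is reported as uncertain. The zone beside YMR050C on chromosome XIII and the one beside YJL113W on chromosome X border Ty elements, for which the same holds. The 9 next highest apexes were 146.9 to 180.7 in WT replicate 1. They lay between YOL024W and IFM1, MET5 and IML1, RCE1 and BUL1, VMS1 and TPI1, HOG1 and AVL9, STB6 and OSI1, inside PEX35, between CRF1 and HTB1, and between JJJ3 and YJR098C.

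At the threshold, the members just inside were windows on chromosomes IV (starting at 123001), IX (108001) and II (488001), with 40.1, 40.2 and 40.3 in WT replicate 1 and 42.0, 46.4 and 42.2 in WT replicate 2. Just outside were windows on XVI (74001 and 816001) and XIII (94001), with 39.9, 39.9 and 39.7 in WT replicate 1 and 40.4, 38.9 and 37.4 in WT replicate 2. Of the 470 arm windows at or above 40 in WT replicate 2, 432 were members.

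The apexes sat mostly between genes. Of the 89 apexes, 15 (16.9%) were inside a gene, against 75.0% of the bins on these arms. Of the 74 apexes between genes, 39 (52.7%) lay between genes running the same way, 14 (18.9%) between genes that start back to back and 21 (28.4%) between genes that end face to face. The shares of intergenic bases on the 14 chromosomes were 50.8%, 33.1% and 16.1% for these kinds of gap. Median levels of RNA polymerase II were slightly lower in the members than on the arms as a whole, and those of RNA were lower by more, which was not tested. Median Rpb3 signal in the members was 33.1 to 34.5 in the fkh1Δfkh2Δ2C libraries and 33.8 to 36.7 in the WT libraries, against 37.2 to 37.9 over all arm windows of these 8 libraries. Median RNA signal in G1 was 0.375 and 0.411 in fkh1Δfkh2Δ2C members and 0.355 and 0.345 in WT members, against 0.609 and 0.598 (fkh1Δfkh2Δ2C) and 0.543 and 0.489 (WT) over all arm windows.

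Across the mutants the members split by strain. Their median signal was 55.8 and 53.9 in fkh1Δ, 72.7 and 71.7 in fkh2Δ, 25.0 and 20.3 in fkh1Δfkh2Δ, and 31.4 and 36.2 in fkh1Δfkh2Δ2C, against 70.8 in WT replicate 2. The fkh2Δ medians lay just above WT, the fkh1Δ medians below it, and those of the 4 libraries with both mutations lowest. The number of members at or above 40 was 326 and 313 in fkh1Δ, 429 and 426 in fkh2Δ, 133 and 107 in fkh1Δfkh2Δ, 172 and 199 in fkh1Δfkh2Δ2C, and 432 in WT replicate 2. Because the windows were chosen for a high WT value, a lower value elsewhere is the direction the choice favours. The libraries were also normalized to nearly 1 distribution, so that a fall here is a loss against other windows of the same library and not a smaller total.

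**Figure D1:**
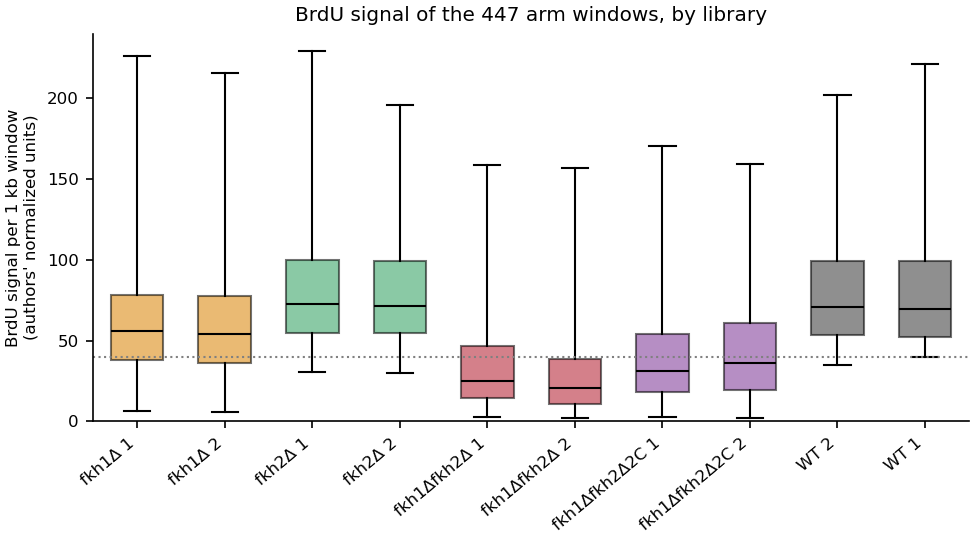
BrdU signal per 1 kb window (authors' normalized units, vertical axis) in the 447 members, for each library from fkh1Δ at the left to WT at the right. Boxes span the quartiles with the median as a line, whiskers reach the lowest and highest window, and the dotted line marks the selection value of 40 in WT replicate 1. The 4 libraries with both mutations have medians of 20.3 to 36.2, below the 70.8 of WT replicate 2.

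The members held 13.5% ± 2.36 of all BrdU signal in the libraries of fkh1Δfkh2Δ and fkh1Δfkh2Δ2C (SD, n = 4), against 27.4% ± 3.79 in fkh1Δ, fkh2Δ and WT replicate 2 (SD, n = 5). The difference of -13.8 percentage points had p = 0.0159 in a 2-sided exact permutation test over libraries, the smallest value this design can give, and 0.0238 after Benjamini-Hochberg adjustment over 6 such tests. With FKH1 mutated the share was 16.8% ± 5.33 (SD, n = 6), and with FKH1 intact 30.1% ± 0.275 (SD, n = 3), with an exact permutation p of 0.0238, again the smallest possible. With both doubted libraries left out, the shares were 13.6% ± 3.89 (SD, n = 2) against 27.4% in the first test and 18.4% ± 6.02 (SD, n = 4) against 30.1% in the second. The exact permutation p was then 0.0952 and 0.0571, each the smallest that these numbers of libraries allow. All libraries of the first group lay below all of the second in both tests, and libraries of 1 strain are not independent of each other.

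Windows of like WT strength near centromeres differed from the members. The 218 windows of at least 40 in WT replicate 1 within 35 kb of a centromere had medians of 100.9 and 102.3 in fkh1Δ, 66.6 and 66.7 in fkh2Δ, 117.6 and 117.3 in fkh1Δfkh2Δ, 118.4 and 109.8 in fkh1Δfkh2Δ2C, and 72.1 in WT replicate 2. Of these 218 windows, 81 rose and none fell in fkh1Δ, and 134 rose and 29 fell in fkh1Δfkh2Δ (limma, adjusted p under 0.05, with 1 window lower in fkh1Δ at an unadjusted p under 0.05). Over all windows 6.85% rose and 9.88% fell in fkh1Δ, and 21.3% rose and 19.4% fell in fkh1Δfkh2Δ. With libraries normalized to nearly 1 distribution, a rise here is a gain against other windows of the same library. When both doubted libraries were left out, the median log2 change of these 218 windows was 0.60 in fkh1Δfkh2Δ. In fkh1Δ, where leaving them out changes no library compared, it was 0.48. The log2 ratio of the member median to this median was -2.07 ± 0.401 in the 4 libraries with both mutations and -0.31 ± 0.529 in the other 5 (exact permutation p = 0.0159, adjusted 0.0238). Against the 1043 arm windows of 10 to under 40, the log2 ratio of medians was 1.41 ± 0.266 and 1.90 ± 0.0368 in the same groups (exact permutation p = 0.0159, adjusted 0.0238). Without both doubted libraries these ratios were -2.07 and 1.39 in the 2 remaining libraries with both mutations (exact permutation p = 0.0952 for each, the smallest possible). The 28 windows of at least 40 near chromosome ends had medians of 6.32 and 5.02 in fkh1Δfkh2Δ and 69.2 in WT replicate 2, and the 65 on chromosomes III and VI had 51.1 and 50.8 in fkh1Δfkh2Δ and 69.8 in WT replicate 2.

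**Figure D2:**
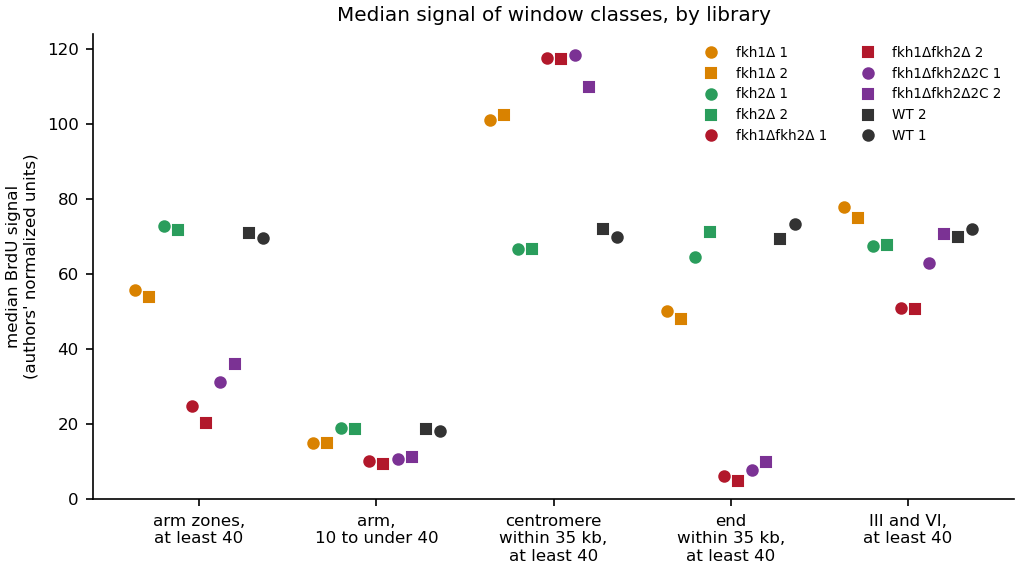
Median BrdU signal (authors' normalized units, vertical axis) of 5 classes of windows, 1 point per library, with replicate 1 as circles and replicate 2 as squares and WT at the right of each class. In the 4 libraries with both mutations the arm members have medians of 20.3 to 36.2, and the windows near centromeres have 109.8 to 118.4.

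Among the comparisons with WT, the largest change was in fkh1Δfkh2Δ. Of the 447 members 365 fell and 13 rose (limma, adjusted p under 0.05, adjusted over all 12070 windows), where 19.4% of all windows fell and 21.3% rose. Among the arm windows of 10 to under 40, 600 of 1043 fell and 149 rose. The median log2 change of the members, on the scale of log2(signal + 1), was -1.69, against a median of 0 over all windows. By zone, 72 of 89 apexes fell, 2 rose and 15 did not pass. The apexes kept a median of 30.3% of their WT replicate 2 signal in fkh1Δfkh2Δ, 10 of them kept under 10% and 9 stood at or above 100%. Without the library labelled fkh1Δfkh2Δ replicate 1, the median log2 change of the members was -1.88. With both doubted libraries left out, the median log2 change was -1.88 over the members and -1.87 over the apexes.

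The deepest fall was on chromosome XV between RDR1, a gene for a repressor of drug resistance genes, and FRE3, a gene for a reductase of iron siderophores (apex from 1053001 to 1054000, 37.2 kb from the chromosome end). Its apex signal was 5.34 and 4.53 in fkh1Δfkh2Δ, against 151.5 in WT replicate 2. The mutant kept 3.26% of the WT signal (log2 change -4.69, SE 0.200, limma adjusted p = 3.03e-05), and both mutant values were far below WT. In fkh1Δ the same apex had 47.8 and 43.7, and in fkh2Δ it had 118.7 and 132.6.

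The zone on chromosome XI between EAP1, which encodes a protein that binds the cap-binding factor eIF4E, and TOR2, which encodes a TOR kinase (apex from 55001 to 56000), had 4.71 and 3.75 in fkh1Δfkh2Δ, against 112.1 in WT replicate 2. It fell by 4.44 on the log2 scale (SE 0.189, limma adjusted p = 3.03e-05). Here fkh1Δ was low as well, at 15.4 and 13.4, while fkh2Δ at 147.3 and 136.1 was above WT replicate 2 without passing the test. WT replicate 1 had 137.3 there, between the fkh2Δ values.

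The zone on chromosome II between BEM1, a scaffold gene of cell polarity, and YBR200W-A (apex from 622001 to 623000) had 3.56 and 2.63 in fkh1Δfkh2Δ, against 75.6 in WT replicate 2 (log2 change -4.24, SE 0.225, limma adjusted p = 4.56e-05). The single mutants had 49.6 and 42.6 in fkh1Δ and 67.2 and 71.2 in fkh2Δ, and neither passed the test. In fkh1Δ this was 61.0% of WT replicate 2 (log2 difference -0.71, SE 0.225, limma adjusted p = 0.0778).

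The zone on chromosome XII between HSP104, which encodes a protein disaggregase, and PAU17 (apex from 91001) had 5.02 and 3.26 in fkh1Δfkh2Δ, against 89.7 in WT replicate 2 (log2 change -4.16, limma adjusted p = 3.31e-05). The 4 next deepest falls had log2 changes of -4.05 between YIL059C and RGI2 (IX), -3.80 between YGL159W and RCK1 (VII), -3.71 between YTA6 and UBP16 (XVI) and -3.41 between ASG1 and TAO3 (IX). The ASG1 and TAO3 zone starts beside FKH1 itself and does not overlap it. In these 4 zones the fkh1Δfkh2Δ apexes were 2.61 to 8.53, against 59.7 to 83.3 in WT replicate 2.

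At 2 zones signal rose in fkh1Δfkh2Δ. Between MID2, a sensor gene of the cell wall, and RPS25B, a gene for a ribosomal protein, on chromosome XII (apex from 794001 to 795000), signal was 93.5 and 89.2 in fkh1Δfkh2Δ and 48.6 in WT replicate 2. The log2 change was 0.90 (SE 0.107, limma adjusted p = 0.000913). Both single mutants lay below the fkh1Δfkh2Δ values, with 46.8 and 46.0 in fkh1Δ and 65.4 and 64.8 in fkh2Δ.

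Between MPE1, a gene of the cleavage and polyadenylation factor, and TOA2, which encodes a subunit of TFIIA, on chromosome XI (apex from 329001 to 330000), signal was 137.6 and 131.8 in fkh1Δfkh2Δ and 96.2 in WT replicate 2 (log2 change 0.48, SE 0.131, limma adjusted p = 0.0262). This rise lost its call under 5 of 18 alternatives, among them leaving out either fkh1Δfkh2Δ or either fkh2Δ replicate, with adjusted p of 0.0515 to 0.0791. The MID2 and RPS25B rise kept its call under each alternative tried.

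**Figure D3:**
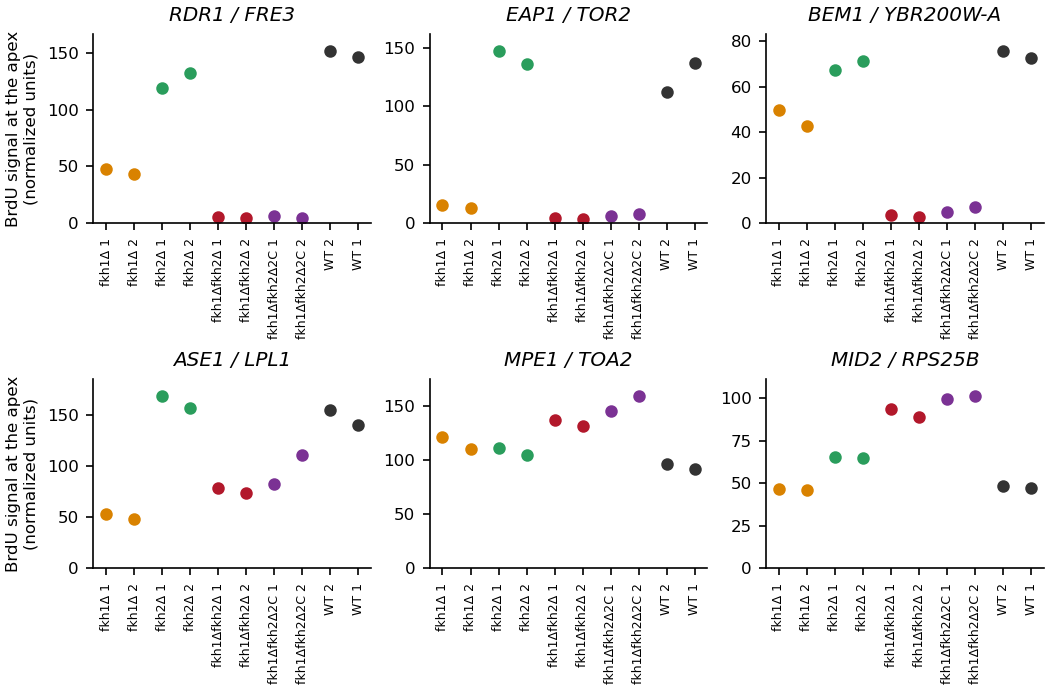
BrdU signal at the apex of 6 named zones (authors' normalized units, vertical axes starting at 0), 1 point per library, from fkh1Δ at the left to WT at the right of each panel. The upper panels show 3 deep falls, with fkh1Δfkh2Δ at 2.63 to 5.34 against 75.6 to 151.5 in WT replicate 2. The lower panels show a zone lower in fkh1Δ than in fkh1Δfkh2Δ (ASE1 and LPL1) and the 2 zones that rose.

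In fkh1Δ alone the falls were fewer and shallower. Of the members 134 fell and none rose in limma, where 9.88% of all windows fell and 6.85% rose. At an unadjusted p under 0.05, 201 members were lower and 6 higher. The share of the moderate arm windows that fell was similar, with 331 of 1043. The median log2 change of the members was -0.36, against 0.02 over all windows, and 31 of 89 apexes fell and none rose (49 lower and 0 higher at an unadjusted p under 0.05). The count depended on single libraries. Fewer members fell without 1 or the other fkh1Δ replicate, with a median log2 change of -0.39 without replicate 1 and -0.34 without replicate 2. More fell without 1 or the other fkh1Δfkh2Δ2C replicate, which changes the shared spread and not the log2 changes here. The share of all windows in these fits is not given. Leaving out both doubted libraries changes no library of this comparison, and the median log2 change stayed at -0.36 over the members and -0.57 over the apexes.

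The deepest fall in fkh1Δ was the EAP1 and TOR2 zone already given, which kept 12.8% of its WT replicate 2 signal (log2 change -2.88, SE 0.189, limma adjusted p = 0.000778). Between ATG1, a kinase gene of autophagy, and TOS3, a gene for a kinase that acts on Snf1, on chromosome VII (apex from 163001), fkh1Δ had 14.8 and 13.0 against 66.3 in WT replicate 2 (log2 change -2.18, limma adjusted p = 0.00230). The remaining 6 of the 8 deepest falls were between YTA6 and UBP16 (-2.13), YDC1 and ELP3 (-1.98), YGL159W and RCK1 (-1.79), TFC1 and PTC4 (-1.74), RDR1 and FRE3 (-1.71) and ASE1 and LPL1 (-1.59). The YDC1 and ELP3 fall lost its call without fkh1Δ replicate 2 (adjusted p = 0.0599).

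Several of the strongest WT zones did not pass the test in fkh1Δ and fell in fkh1Δfkh2Δ. Between JJJ3 and YJR098C on chromosome X (apex from 613001), signal was 127.6 and 128.8 in fkh1Δ, 20.1 and 12.3 in fkh1Δfkh2Δ, and 129.8 in WT replicate 2. Between CRF1 and HTB1, a histone H2B gene, on chromosome IV (apex from 914001), it was 178.6 and 179.0 in fkh1Δ, 70.1 and 41.4 in fkh1Δfkh2Δ, and 131.1 in WT replicate 2. Neither zone passed the test in fkh1Δ (limma adjusted p = 0.988 and 0.303), and both fell in fkh1Δfkh2Δ (limma adjusted p = 0.000291 and 0.0109). Of the 10 highest zones, 9 fell in fkh1Δfkh2Δ, by 1.16 to 3.39 on the log2 scale, and the ribosomal DNA zone did not pass (log2 difference -0.46, limma adjusted p = 0.604). The zone between RCE1 and BUL1 on chromosome XIII had the highest apex in WT replicate 2, at 202.0, and was the one among these 10 that also fell in fkh1Δ, with 104.5 and 97.1 there and 19.0 and 17.8 in fkh1Δfkh2Δ.

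In fkh2Δ alone no member passed the test in limma in either direction, where 0.191% of all windows fell and 0.0166% rose. At an unadjusted p under 0.05, 11 members were lower and 14 higher. The median log2 difference of the members was 0.02, the apexes kept a median of 105% of WT replicate 2, and their range was 72.3% to 180%. A p above the threshold does not show that the strains replicated alike. The apexes with the smallest p among higher ones were between MRX1 and ICP55 (82.1 ± 5.18 in fkh2Δ, SD, n = 2, and 55.8 in WT replicate 2), MID2 and RPS25B, and PYC1 and DUO1 (99.0 ± 1.02 in fkh2Δ and 54.9 in WT replicate 2), with limma adjusted p of 0.122, 0.139 and 0.184. In WT replicate 1 the PYC1 and DUO1 apex was 80.7. Among lower ones they were between YIL059C and RGI2, ECM22 and CDC42, and HXT3 and SVF1, with adjusted p of 0.254 to 0.430. These 3 apexes were also lower in WT replicate 1, at 41.4, 117.3 and 133.1, than in WT replicate 2, at 59.7, 134.85 and 150.2. The doubted libraries are not part of this comparison, so leaving them out cannot move the member median. Without fkh2Δ replicate 2, whose tag disagrees, the member median was 0.008.

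**Figure D4:**
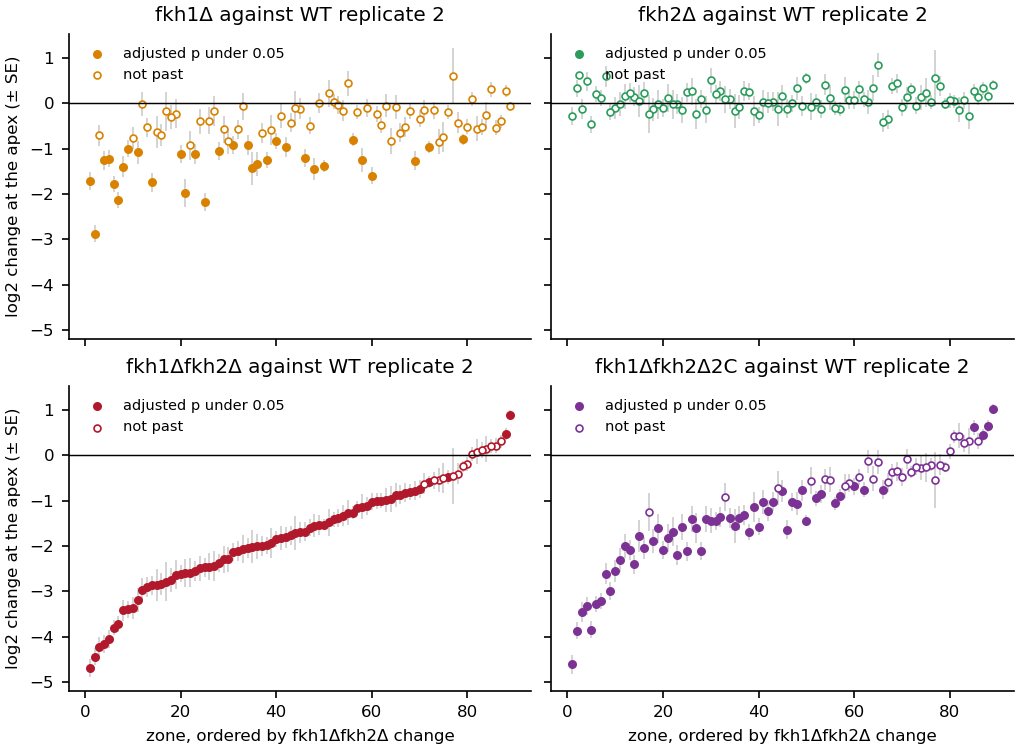
The log2 change at the apex (vertical axis, log2 of signal + 1, bars are the SE of limma) of each of the 89 zones in 4 mutants, each against WT replicate 2, with zones in all panels in the order of their fkh1Δfkh2Δ change. Filled points passed an adjusted p of 0.05. The counts of falls are 31 in fkh1Δ, 0 in fkh2Δ, 72 in fkh1Δfkh2Δ and 54 in fkh1Δfkh2Δ2C.

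In fkh1Δfkh2Δ2C 292 members fell and 18 rose against WT, where 17.2% of all windows fell and 17.8% rose, and the member median was -1.10. By apex 54 fell and 4 rose, and the apexes kept a median of 49.0% of WT replicate 2. The 8 deepest falls included the zones of RDR1 and FRE3 (-4.61), EAP1 and TOR2 (-3.87) and RCE1 and BUL1 (-2.99). The RDR1 and FRE3 apex had 6.22 and 4.39 in fkh1Δfkh2Δ2C, against 151.5 in WT replicate 2. The rises were between MID2 and RPS25B (1.03), MPE1 and TOA2 (0.66), COT1 and YOR316C-A (0.62), and inside RRP15 (0.45), a gene for ribosomal RNA processing. The last 2 rises are close to the threshold (limma adjusted p = 0.0235 and 0.0478), and both lost the call with WT replicate 1 in place of WT replicate 2 and without either fkh1Δ replicate. Of 18 alternatives the COT1 and YOR316C-A rise lost its call under 4 (adjusted p = 0.0504 to 0.0751) and the RRP15 rise under 10 (adjusted p = 0.0521 to 0.0997). Without the library labelled fkh1Δfkh2Δ2C replicate 1, more members fell and more rose, and the share of all windows in that fit is not given. With both doubted libraries left out, the median log2 change was -1.07 over the members and -0.87 over the apexes.

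Set against fkh1Δ, fkh1Δfkh2Δ2C had 284 members lower and 39 higher past the threshold, where 16.9% of all windows fell and 19.6% rose. The median log2 difference was -0.78 over the members and -0.54 over the apexes. When both doubted libraries were left out, these medians were -0.72 and -0.31. Leaving out 1 or the other fkh1Δ replicate gave fewer members lower past the threshold. The largest differences were at RDR1 and FRE3 (-2.90), BEM1 and YBR200W-A (-2.75), YIL059C and RGI2 (-2.62) and HSP104 and PAU17 (-2.06). Of the 89 apexes 23 were higher in fkh1Δfkh2Δ2C than in fkh1Δ, and 11 of them passed the test, led by MID2 and RPS25B (1.10), SRP21 and DGR2 (0.99), HOS1 (0.92) and ASE1 and LPL1 (0.91). Between ASE1, a gene for a spindle midzone protein, and LPL1 on chromosome XV (apex from 436001), signal was 82.9 and 111.2 in fkh1Δfkh2Δ2C, 78.3 and 73.3 in fkh1Δfkh2Δ, 53.0 and 48.3 in fkh1Δ, and 154.8 in WT replicate 2. The fkh1Δ values there were the lowest of all libraries. The SRP21 and DGR2 difference lost its call without either fkh1Δ replicate (adjusted p = 0.0595 and 0.0859), and the HOS1 difference without fkh1Δ replicate 2 (adjusted p = 0.0517).

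Set against fkh2Δ, fkh1Δfkh2Δ had 377 members lower and 14 higher past the threshold, where 24.7% of all windows fell and 25.4% rose. This comparison uses no WT library. By apex 74 fell and 2 rose, with the deepest falls at EAP1 and TOR2 (-4.77), HSP104 and PAU17 (-4.65), RDR1 and FRE3 (-4.42) and BEM1 and YBR200W-A (-4.11). The rises were at MID2 and RPS25B (0.48, limma adjusted p = 0.00413) and MPE1 and TOA2 (0.31, limma adjusted p = 0.0489). The second lost its call under 9 of the alternatives tried. The median log2 difference was -1.71 over the members and -1.75 over the apexes, and without both doubted libraries it was -1.87 and -1.92.

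Whether the change in the strain labelled with both mutations exceeded the sum of the changes in the single mutants was tested as a difference of differences, that is fkh1Δfkh2Δ minus fkh2Δ, less fkh1Δ minus WT replicate 2, on the log2(signal + 1) scale. At 304 members the signal with both mutations was lower than the sum of the single changes, and at 8 it was higher, where 16.5% of all windows were lower and 15.9% higher. The member median was -1.38, against 0 over all windows. By apex 51 passed as lower and 2 as higher. The largest were at BEM1 and YBR200W-A (-3.40, SE 0.291, limma adjusted p = 0.00139), HSP104 and PAU17 (-3.39), JJJ3 and YJR098C (-3.10) and RDR1 and FRE3 (-2.71), named after their values were seen. At ATG1 and TOS3, where fkh1Δ had already fallen by 2.18, the excess was -0.53 and did not pass (limma adjusted p = 0.165). With both doubted libraries left out, the median excess was -1.49 over the members and -1.35 over the apexes.

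Between fkh1Δfkh2Δ2C and fkh1Δfkh2Δ no member passed in limma in either direction, where 0.00829% of all windows were lower and 0% higher. At an unadjusted p under 0.05, 258 members were higher in fkh1Δfkh2Δ2C and 1 was lower, and 87 of the 89 apexes were higher in fkh1Δfkh2Δ2C. The median log2 difference of the members was 0.43. The libraries of each strain were also the farthest apart, with a median absolute log2 difference between replicates over the members of 0.268 in fkh1Δfkh2Δ and 0.317 in fkh1Δfkh2Δ2C, against 0.0716 in fkh1Δ, 0.0618 in fkh2Δ and 0.102 in WT. This result rests on the doubted libraries. Members passed as higher without the library labelled fkh1Δfkh2Δ replicate 1, and in both directions without the library labelled fkh1Δfkh2Δ2C replicate 1. Each such fit has 1 library of the strain concerned, and the share of all windows in it is not given. Without both doubted libraries, the comparison is of 1 library with 1 library. The median log2 difference was then 0.66 over the members and 0.85 over the apexes.

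The comparisons with WT share WT replicate 2, so their values are set side by side and not counted as separate support. In the mean profile over the 89 zones the value at the apex was 72.1 and 68.1 in fkh1Δ, 106.4 and 105.8 in fkh2Δ, 40.7 and 35.1 in fkh1Δfkh2Δ, 45.9 and 59.6 in fkh1Δfkh2Δ2C, and 101.3 in WT replicate 2. The width at 50% of the peak height could be measured in every library at the 56 zones whose peak reached 20 in all of them. Its median was 5.55 and 5.85 kb in fkh1Δ, 4.33 and 4.28 kb in fkh2Δ, 5.30 and 5.35 kb in fkh1Δfkh2Δ, 5.28 and 4.10 kb in fkh1Δfkh2Δ2C, and 4.45 kb in WT replicate 2. The median widths of fkh1Δ and fkh1Δfkh2Δ were above those of fkh2Δ and WT, which was not tested, and the 2 libraries labelled fkh1Δfkh2Δ2C lay on either side of WT replicate 2. These 56 zones leave out those that lost most signal.

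**Figure D5:**
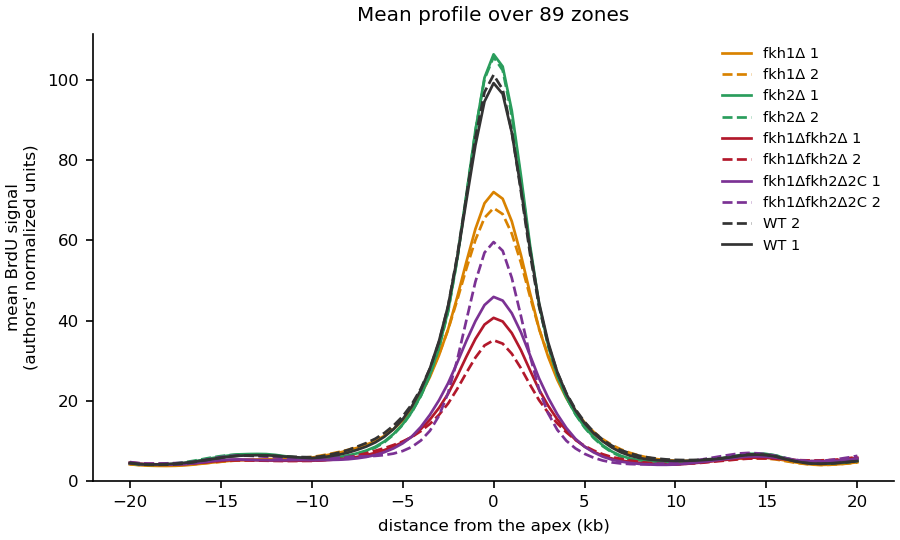
Mean BrdU signal (authors' normalized units, vertical axis) against distance from the apex (kb, horizontal axis) over the 89 zones, 1 line per library, solid for replicate 1 and dashed for replicate 2. At the apex fkh2Δ and WT lie between 99.2 and 106.4, fkh1Δ at 68.1 and 72.1, and the libraries with both mutations between 35.1 and 59.6.

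By place, falls in fkh1Δfkh2Δ were counted among the apexes, where 19.4% of all windows fell, and no test was made of differences between places. All 7 zones between 35 and 70 kb from a chromosome end fell, with a median log2 change of -2.86. Of the 14 zones between 70 and 140 kb from an end 10 fell, with a median of -2.14, and of the 68 farther in 55 fell, with a median of -1.57. The share of zones that fell was thus lowest in the middle class, and the median fall was deepest nearest the ends. Of the 11 zones between 35 and 70 kb from a centromere 10 fell, with a median of -2.49. Of the 24 between 70 and 140 kb 18 fell, with a median of -1.56, and of the 54 farther away 44 fell, with a median of -1.61.

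By chromosome the median log2 change of the apexes in fkh1Δfkh2Δ was between -3.41 on IX, with 3 zones, and -0.76 on XI, with 4 zones. The 14 apexes between genes that start back to back had a median of -0.61, against -2.10 for the 39 between genes running the same way, -1.98 for the 21 between genes that end face to face and -1.13 for the 15 inside genes. No test was made of these differences.

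Transcription in the members was compared between fkh1Δfkh2Δ2C and WT, the strains with such libraries. Rpb3 signal could be tested in 394 of the 447 members after the lowest 10% of windows were left out. In limma no member passed in either direction in asynchronous cells or in G1, where 0% of all windows passed in each. No window over FKH1 was called either, though its Rpb3 signal was 1.32 to 7.26 in fkh1Δfkh2Δ2C and 27.7 to 41.0 in WT. The lack of calls therefore does not show that the members were unchanged. At an unadjusted p under 0.05, 46 members were lower and 26 higher in asynchronous fkh1Δfkh2Δ2C cells, and 2 lower and 18 higher in G1. The median log2 differences were -0.11 and 0.02, against -0.03 and 0.00203 over all windows. The asynchronous result turned on a library, since without WT asynchronous replicate 2 the counts were 113 lower and 42 higher.

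RNA in G1 could be tested in 726 of the 894 stranded member windows, and none passed in limma in either direction, where 0% of all stranded windows passed. With no call anywhere in the genome, this does not show that the members were unchanged. At an unadjusted p under 0.05, 13 were lower and 52 higher in fkh1Δfkh2Δ2C. Their median log2 difference was 0.31, against 0.21 over all stranded windows. Leaving out 1 or the other fkh1Δfkh2Δ2C G1 replicate gave member windows higher past the threshold. Each such fit has 1 library of that strain, and the share of all stranded windows in it is not given here. Whether the members differ from the other windows was not tested. The smallest p for RNA belonged to windows at 0 in both WT libraries, such as the window on chromosome VIII from 450001 in the columns marked R, with 0.225 and 0.280 in fkh1Δfkh2Δ2C (limma adjusted p = 0.604). For Rpb3 in G1 it belonged to the window on chromosome V from 351001, with 57.9 and 63.3 in fkh1Δfkh2Δ2C and 34.8 and 38.5 in WT (limma adjusted p = 0.280).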

How the data were processed

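Per the file headers, the authors deposited a normalized signal per 50 bp bin for each library, over 241409 bins on 16 chromosomes. No source used here gives the aligner, the genome build, the normalization or the read depth, so no counting intervals can be given. BrdU libraries shared nearly 1 distribution, with a mean of 9.84 to 9.86 and a median of 2.60 to 2.66. The deposited tables held 8 columns that were not used, among them asynchronous RNA columns with a repeated name.

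Bins were averaged over 1 kb windows tiled from the first base of each chromosome. Centromere positions were those of assembly R64, checked against its gene order. Genes of the RefSeq R64 table were placed by the stranded RNA signal, with 96.2% of 6002 genes within 1 bin of their R64 position. Coordinates are 1-based, as in the files. Other sequence of the zones was not analysed here.

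Windows were tested as log2(signal + 1) with limma 3.58.1 in R 4.3.3 (variance trend, 2-sided, Benjamini-Hochberg over all windows, threshold 0.05). A single fit of 8 mutant BrdU libraries and WT replicate 2 had 4 residual degrees of freedom, so the lone WT library is assumed to vary like the mutants. Fold changes on this scale understate changes of low windows. Rpb3 (8 libraries, pseudocount 3.74) and G1 RNA (4 libraries, pseudocount 0.0117) were fitted without the lowest 10% of windows. Library values were tested by exact permutation (scipy 1.17.1). The limma steps were tested on simulated data.

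Groups came from the strain labels, except the second fkh2Δ library, taken from its title. Named zones were the 10 highest and the 5 widest, with ties at 8 kb taken in chromosome order. Also named were the 8 largest falls and rises of an apex past the threshold against WT (4 between mutants). For fkh2Δ these were the 3 smallest p in each direction. The test of both deletions beyond the sum was added after seeing the data. The members and lists were chosen with earlier results of these data known. Alternatives covered the pseudocount, low windows, bin medians, scaling by the arm mean, the WT replicate, the member threshold, the variance trend and each replicate.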

Additional observations from a re-analysis of the deposited data

Results flagged for a closer look

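At 304 member windows signal with both mutations was lower, and at 8 higher, than the sum of the changes in fkh1Δ and fkh2Δ would give, in a direct limma test of that difference (adjusted p under 0.05). Over all windows 16.5% were lower and 15.9% higher, and the test was added after seeing the data. The values by zone stand with that comparison above. The test shares its libraries with the other comparisons and uses WT replicate 2 as the only WT library.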

How the results depend on the processing

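Values in this paragraph are percentages of the members past the threshold. The share over all windows is not given for these alternatives. Leaving out a library changes the spread shared by all comparisons, so these values are not a result about the members alone. This holds most for the fit without both doubted libraries, whose spread comes from fkh1Δ and fkh2Δ alone. For fkh1Δ and fkh2Δ against WT the log2 changes cannot move in that fit, so calls gained there reflect the spread only. Its comparison of fkh1Δfkh2Δ2C with fkh1Δfkh2Δ is of 1 library with 1 library. The shares of that fit are listed for completeness and are not read as results. Leaving out 1 library at a time gave 10.51 to 46.53 lower and 0 to 2.24 higher for fkh1Δ against WT, 2.68 to 7.38 higher for fkh1Δfkh2Δ2C against WT, 40.04 to 69.13 lower and 4.03 to 14.54 higher for fkh1Δfkh2Δ2C against fkh1Δ, 1.79 to 5.15 higher for fkh1Δfkh2Δ against fkh2Δ, 0 to 2.68 lower and 0 to 49.66 higher for fkh1Δfkh2Δ2C against fkh1Δfkh2Δ, and 0.22 to 7.38 higher beyond the sum. It gave 0 to 28.68 lower and 0 to 10.66 higher for asynchronous Rpb3, 0 to 0.25 higher for Rpb3 in G1, and 0 to 15.56 higher for RNA. With both doubted libraries left out, an alternative added after seeing the data, the values were 55.03 lower and 12.75 higher for fkh1Δ, 1.34 higher for fkh2Δ, 7.38 higher for fkh1Δfkh2Δ2C, 15.88 higher for fkh1Δfkh2Δ2C against fkh1Δ, 2.68 lower and 72.71 higher for fkh1Δfkh2Δ2C against fkh1Δfkh2Δ, and 6.49 higher beyond the sum. Division by the arm mean gave 1.12 higher for fkh1Δ, 6.04 for fkh1Δfkh2Δ, 6.71 for fkh1Δfkh2Δ2C, 7.83 for fkh1Δfkh2Δ against fkh2Δ and 4.70 beyond the sum. It moved the median of all windows in fkh1Δfkh2Δ against WT to 0.20, and the members lay 1.58 below that (a difference of -1.58 on the log2 scale). For fkh1Δ, 0.45 rose with both WT replicates in the fit and 0.22 with the variance trend off. A member threshold of 30 gave 3.97 higher beyond the sum, and a threshold of 50 gave 0.85, and 1.70 higher for fkh1Δfkh2Δ against fkh2Δ. The cause was not tested.

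The replicate numbers were not treated as pairs in the main fits. Same-numbered BrdU deviations correlated between -0.23 and 0.26, with 3 of 10 pairs above 0.1. The correlations were 0.06 to 0.48 for Rpb3 (5 of 6 pairs above 0.1) and 0.03 for the 1 RNA pair. For Rpb3 the pairs compared, fkh1Δfkh2Δ2C and WT, had 0.48 in G1 and 0.33 in asynchronous cells. Whether same-numbered Rpb3 libraries share an effect was not tested. With a replicate block, 1.12% of members were higher beyond the sum, against 1.79% without it, and 0.28% of stranded RNA windows were lower and 0.14% higher, against 0. The block changed no other count by over 1.5 times. Among named zones it ended 4 calls: the rises at MPE1 and TOA2 in fkh1Δfkh2Δ against WT (limma adjusted p = 0.0609) and against fkh2Δ (0.0749), and those at COT1 and YOR316C-A (0.0526) and RRP15 (0.0997) in fkh1Δfkh2Δ2C against WT.

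In the tests over libraries with FKH1 mutated, leaving out 1 library gave differences of -14.711 to -12.159 points in the share, -1.91 to -1.575 in the log2 ratio to windows near centromeres and -0.433 to -0.273 in the ratio to moderate windows. Without a fkh2Δ replicate no p can go below 0.0714. A member threshold of 30 gave -0.306 in the last ratio. With both doubted libraries left out, the tests of both mutations gave -13.794 points, -1.751 and -0.51 (exact permutation p = 0.0952 for each), and those of FKH1 gave -11.721 points, -1.547 and -0.298 (p = 0.0571 for each), in both cases the smallest p possible. The 44 named zone results past the threshold kept their call in 760 of 792 values under alternatives, lost it in 32 and reversed in 0. Some alternatives used WT replicate 1, which chose the members and apexes, so that falls are the direction favoured there. Others left out a library of neither strain compared, where the log2 change cannot move and only the spread does. The tally is therefore a description and not separate support. The 6 fkh2Δ results short of it gained a call only in the fit without both doubted libraries. Depth is unknown, which leaves the precision of low windows unknown.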
